A study of Caenorhabditis elegans with 2 samples.

Results

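The 6 genes hat-1, cbp-1, pcaf-1, mys-1, mys-2 and mys-4, which encode histone acetyltransferases, were examined among the 19973 protein-coding genes of the annotation for regions occupied by the tagged product of R02D3.7, which the annotation names rcat-1. The set was put together because the promoter of hat-1 stood among the regions of highest signal in these same data, and the other enzymes were added by function. The signal and rank at hat-1 were therefore among the measured values that selected the set, and the values at all 6 genes are given as a description, with no test. A region was assigned to a gene when its summit lay between 1000 bp upstream and 200 bp downstream of an annotated transcript start.

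The data are chromatin immunoprecipitation sequencing (ChIP-seq) peak lists from whole L3 larvae of Caenorhabditis elegans, in 2 biological replicates of 1 group. Both come from strain OP218, which carries the unc-119(ed3) III mutation and the transgene wgIs218, an insertion that supplies R02D3.7 fused to eGFP, and males and females were pooled. The animals were whole, so a region cannot be assigned to a tissue, and the protein followed is a tagged transgene product. No control was among the libraries analysed, so sites specific to this protein cannot be told apart from sites that any tagged protein would give, and all values below are levels within 1 condition.

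Histone acetyltransferases transfer acetyl groups to lysines of histones, which loosens the contact between histone and DNA and creates docking sites for bromodomain proteins. HAT-1 is the worm form of the enzyme that acetylates newly made histones before they are built into chromatin. CBP-1, PCAF-1 and the MYST enzymes MYS-1, MYS-2 and MYS-4 belong to families that act on chromatin itself as coactivators, mostly within large complexes, and deacetylases reverse the reaction.

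The stretches of 200 bp around the summits at hat-1, cbp-1 and mys-1 are shown because they are the highest region of each gene and differ in the short motifs they hold. They were read from the RefSeq WBcel235 genome (ce11) on the strand of the gene, with the summit in the middle, at chrIII:10407357-10407556 (minus strand), chrIII:9765495-9765694 (plus strand) and chrV:7084810-7085009 (minus strand). Capitals mark matches to the motifs searched, CGCGCG and ACGCGC at hat-1, which overlap each other as ACGCGCG, and the reverse complement of ACGCGC at mys-1. The cbp-1 stretch held no match.
hat-1: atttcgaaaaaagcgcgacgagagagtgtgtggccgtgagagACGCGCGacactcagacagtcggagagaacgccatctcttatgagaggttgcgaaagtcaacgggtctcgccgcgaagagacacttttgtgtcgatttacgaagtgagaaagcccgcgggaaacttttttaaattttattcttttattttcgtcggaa
cbp-1: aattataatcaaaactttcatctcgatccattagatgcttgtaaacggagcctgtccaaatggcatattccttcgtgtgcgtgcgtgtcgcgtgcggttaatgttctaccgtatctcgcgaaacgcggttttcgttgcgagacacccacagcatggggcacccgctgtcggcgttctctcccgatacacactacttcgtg
mys-1: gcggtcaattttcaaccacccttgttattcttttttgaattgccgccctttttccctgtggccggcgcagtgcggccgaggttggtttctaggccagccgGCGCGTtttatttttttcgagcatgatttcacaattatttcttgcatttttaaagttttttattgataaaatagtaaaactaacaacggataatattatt

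The 4 lists used were the peaks that passed a threshold on the irreproducible discovery rate (IDR), which scores how far region ranks repeat between replicates, with 1584 regions, a permissive list of the pooled replicates with 30000, and a permissive list for replicate 1 (30000 regions) and for replicate 2 (29367 regions). Signal is the authors' value for a region, on a scale not given in the sources used here. Its median was 82.2 in the IDR list, 14.99 in the pooled list, 7.48 in replicate 1 and 10.1 in replicate 2, so signals were compared only within a list. Every IDR region had the same rank in the pooled list, so the IDR list holds the 1584 pooled regions of highest signal. Being in the IDR list is therefore no score of how well a single region repeated between the replicates. Read depth is unknown.

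The hat-1 promoter held one of the highest regions of the experiment, and the other enzymes followed far below it. Of the 6 members, 3 had an IDR summit in their promoter window (hat-1, cbp-1 and pcaf-1), beside 7.72% of all protein-coding genes (1542 of 19973). In the pooled list all 6 had a summit, beside 41.7% of all protein-coding genes. The count was 6 in replicate 1, beside 41.4%, and 5 in replicate 2, beside 42.0%, where mys-4 had none. Since hat-1 was selected on this signal, these shares are set side by side and no more is read from them.

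The hat-1 gene (WBGene00044069) runs on the minus strand of chromosome III from 10405248 to 10407248 and has 1 annotated transcript. Its region spanned 10407167 to 10407734, with a summit at 10407457, 209 bp upstream of the start. Signal there was 1886 in the IDR and pooled lists (rank 7), 1238 in replicate 1 (rank 6) and 640.2 in replicate 2 (rank 8). The −log10 q-value was the highest its list holds, 3.43 in the IDR and pooled lists. This value does not set hat-1 apart, since cbp-1, pcaf-1 and even the IDR region of rank 1313 had the same. The rank over the 2 replicates was 7 ± 1.41 (mean ± SD, n = 2). The signal was 22.95 times the median region of the IDR list and 125.9 times that of the pooled list, 165 times that of replicate 1 and 63.2 times that of replicate 2. In each of the lists hat-1 thus ranked between 6 and 8.

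The hat-1 region was also broad, and its summit repeated closely between the replicates. At 568 bp it was among the widest, with 5 of the 1584 IDR regions (0.316%) at least as wide, where the median IDR width was 384 bp. The regions of nearest rank were also wider than the median, at 497 bp (rank 5), 478 bp (rank 6), 465 bp (rank 8) and 452 bp (rank 9), so width above the median is not particular to hat-1. The hat-1 region was 545 bp wide in replicate 1 (list median 384 bp) and 386 bp in replicate 2 (list median 350 bp). Its summits in replicate 1 and replicate 2 were 4 bp apart, against a median of 22 bp over the 1571 IDR regions found in both. Close repeat is not particular to hat-1 either. At the deacetylase gene sir-2.1, outside the IDR list (pooled rank 2425), the summit was at 10366246 in both replicates. Among protein-coding genes, 13 (0.0651%) had a promoter signal in the pooled list as high as or higher than hat-1, itself included. Elsewhere in the gene there were 2 pooled regions, the higher at a signal of 29.8, and 0 IDR summits.

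CBP-1, the worm homolog of the CBP coactivators, came next. The cbp-1 gene (WBGene00000366) lies on the plus strand of chromosome III from 9766509 to 9774825. Its IDR region, 9765462 to 9765727 with a summit at 9765595, was narrow at 266 bp and far from the gene, 914 bp upstream of the start. The region was 259 bp wide in replicate 1 but 350 bp in replicate 2, the median width of that list, so the narrowness did not repeat. Signal was 281 in the IDR and pooled lists (rank 162), 163 in replicate 1 (rank 172) and 119 in replicate 2 (rank 155), and the replicate summits were 8 bp apart. A summit so far out was uncommon, since 61 of the 1588 pairs of a gene and an IDR summit (3.84%) lay 900 bp or more upstream, where the median distance over all pairs was 234 bp upstream. A second region sat nearer the start, 120 bp upstream in the pooled list at 9766197 to 9766580, with a signal of 46.7 (rank 1803), 19.3 in replicate 1 (rank 2363) and 21.8 in replicate 2 (rank 2675), and this one was outside the IDR list.

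PCAF-1 is the homolog of the PCAF and GCN5 enzymes, which act in complexes of the SAGA type. The pcaf-1 gene (WBGene00021636) lies on the plus strand of chromosome I from 3516450 to 3523418, and its region from 3516253 to 3516636 was the one most nearly on a start, with the summit 5 bp upstream. Signal was 109 in the IDR and pooled lists (rank 538), 46.9 in replicate 1 (rank 743, summit 10 bp downstream) and 57.5 in replicate 2 (rank 473, summit 2 bp upstream). The replicate summits were 12 bp apart, and the rank was higher up in replicate 2 than in replicate 1.

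None of the MYST genes had an IDR region in its own window. The highest was at mys-1 (WBGene00007029), the homolog of the Tip60 enzyme, on the minus strand of chromosome V from 7081545 to 7084662. Its pooled region at 7084718 to 7085101 had its summit 248 bp upstream of the start and a signal of 41.2 (rank 2132), with 15.7 in replicate 1 (rank 3359) and 25.0 in replicate 2 (rank 2095), and replicate summits 45 bp apart. The lowest signal in the IDR list was 50.7, so mys-1 and the second cbp-1 region were the nearest below it among the members, and pcaf-1 was the nearest above.

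At the other MYST genes the signals were lower still. At mys-2 (WBGene00010537, plus strand of chromosome I, 14118751 to 14127202), a MOF homolog, the highest pooled region had a signal of 16.1 (rank 12830) at 923 bp upstream, while replicate 1 gave 8.15 (rank 12685) at 380 bp upstream and replicate 2 gave 10.4 (rank 13779) at 955 bp upstream. At mys-4 (WBGene00007914, plus strand of chromosome I, 8333082 to 8336727) the pooled region had a signal of 14.4 (rank 16395) at 91 bp downstream, replicate 1 had 11.3 (rank 6430) at the same place and replicate 2 had no region. The −log10 q-value in the pooled list was 0.203 at mys-2 and 0.134 at mys-4, against 2.78 at mys-1. Both signals lay close to the median of the pooled list, 14.99.

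**Figure D1:**
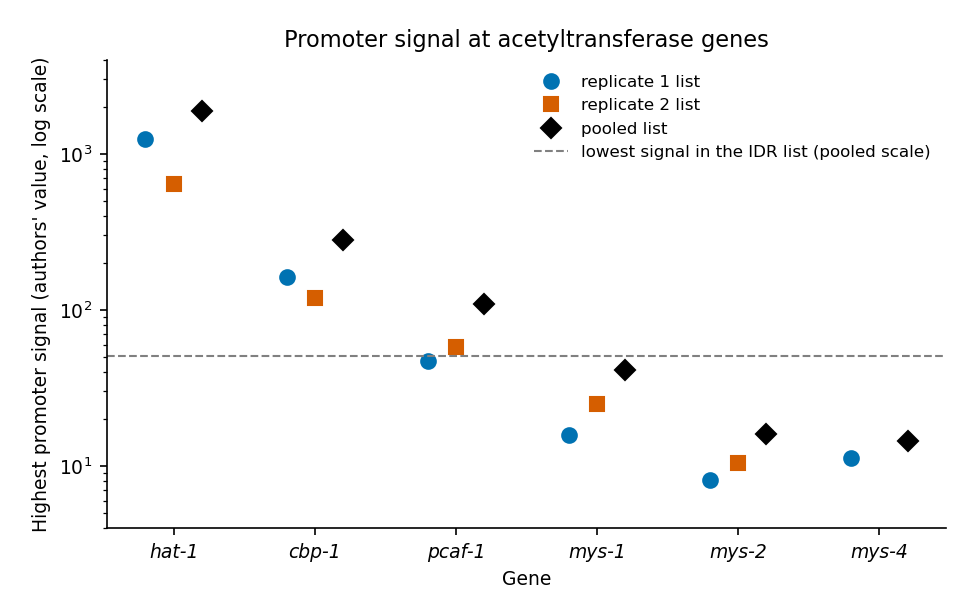
Highest promoter signal (authors' value, log scale) at each of the 6 genes in replicate 1 (circles), replicate 2 (squares) and the pooled list (diamonds); the dashed line is the lowest signal of the IDR list, 50.7, on the pooled scale. hat-1 stands at the top in every list, with 1886 in the pooled list, and mys-4 has no point for replicate 2.

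The order hat-1, cbp-1, pcaf-1 and mys-1 held in the pooled list and in both replicate lists. The IDR list repeats the pooled ranks of the first 3 and has no mys-1 region, so it adds no separate order. In the replicate lists the ranks of neighbours in this order did not overlap. At the low end, mys-4 was above mys-2 in replicate 1 and below it in the pooled list, so no order is given for this pair. The hat-1 signal was 6.72 times that of cbp-1 in the pooled list, 7.60 times in replicate 1 and 5.38 times in replicate 2. It was 17.2 times that of pcaf-1 in the pooled list, 26.4 times in replicate 1 and 11.1 times in replicate 2. Against mys-1 the ratio was 45.7 in the pooled list, 78.6 in replicate 1 and 25.6 in replicate 2, against mys-2 it was 117 in the pooled list, 152 in replicate 1 and 61.4 in replicate 2, and against mys-4 it was 131 in the pooled list and 109.6 in replicate 1. Each of these ratios with a value in both replicates was higher in replicate 1 than in replicate 2 and above 1 in both. All of them share the hat-1 signal of their list, so they are not separate observations. hat-1 was selected for its high signal, so ratios above 1 were built into the choice. The 2 replicate lists share a control and are not independent.

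Among all protein-coding genes the 5 other enzymes were spread widely. In the pooled list, 231 genes (1.16%) had a promoter signal as high as or higher than cbp-1, 674 (3.37%) than pcaf-1, 1900 (9.51%) than mys-1, 5309 (26.6%) than mys-2 and 6022 (30.2%) than mys-4. Each count includes the gene itself, and genes with no region count as lower.

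**Figure D2:**
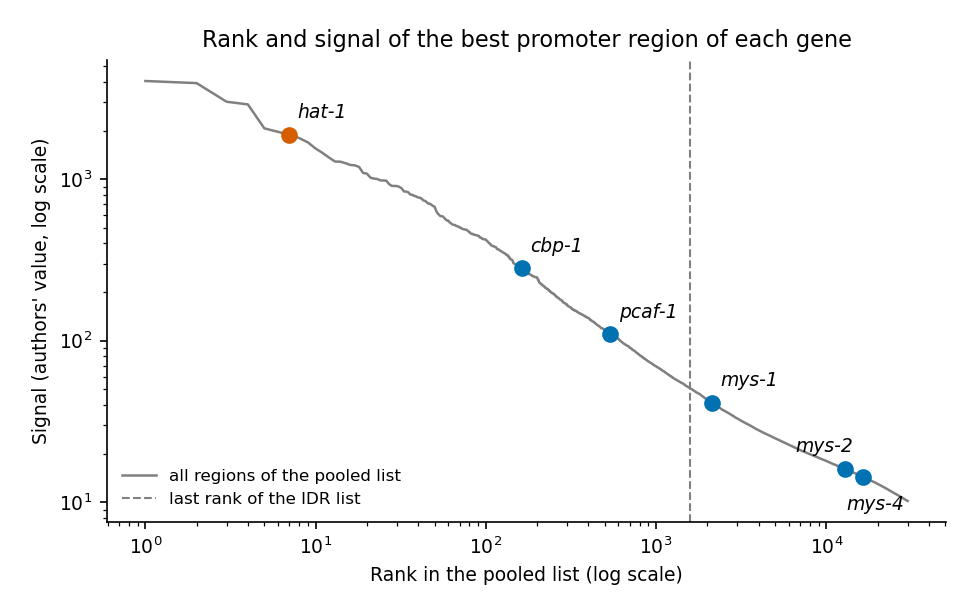
Signal (authors' value, log scale) against rank (log scale) for all regions of the pooled list (grey line), with the highest promoter region of each gene marked (hat-1 in orange, the other enzymes in blue); the dashed line is the last IDR rank, 1584. hat-1 (rank 7), cbp-1 (162) and pcaf-1 (538) lie left of the line, and mys-1 (2132), mys-2 (12830) and mys-4 (16395) right of it.

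The regions also differed in what else lies beside them. The hat-1 summit fell in an intron of M03C11.3 (WBGene00010840), a protein-coding gene on the opposite strand that spans chromosome III from 10405070 to 10415887 and so contains hat-1. It was 759 bp upstream of an internal start of M03C11.3 at 10408216, which lies 968 bp from the hat-1 start, so this start shares the region and a peak list does not say which gene it serves. Such sharing was common, since 453 of the 1106 IDR summits in promoter windows (41.0%) lay in the windows of 2 or more protein-coding genes. On the hat-1 strand, chl-1 follows after a gap of 7 bp, and its own best region, which is the weak one inside hat-1 already given, had a pooled signal of 29.8 (rank 3590) at 173 bp upstream.

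The other members shared no region with a protein-coding gene. The cbp-1 summit was intergenic and 486 bp upstream of the start of the noncoding RNA gene R10E11.10 on the opposite strand (WBGene00196856, chromosome III, 9764747 to 9765109), and the nearest other protein-coding start, that of gcc-2, was 3452 bp away. The pcaf-1 summit was intergenic, with the nearest other protein-coding start, that of Y47G6A.18, at 3712 bp. The mys-1 summit was intergenic too, and the start of VC5.2 lay 1046 bp from it, just beyond the window. The higher mys-2 summit lay in an intron of its upstream neighbour fld-1, and the mys-4 summit in an exon of mys-4.

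**Figure D3:**
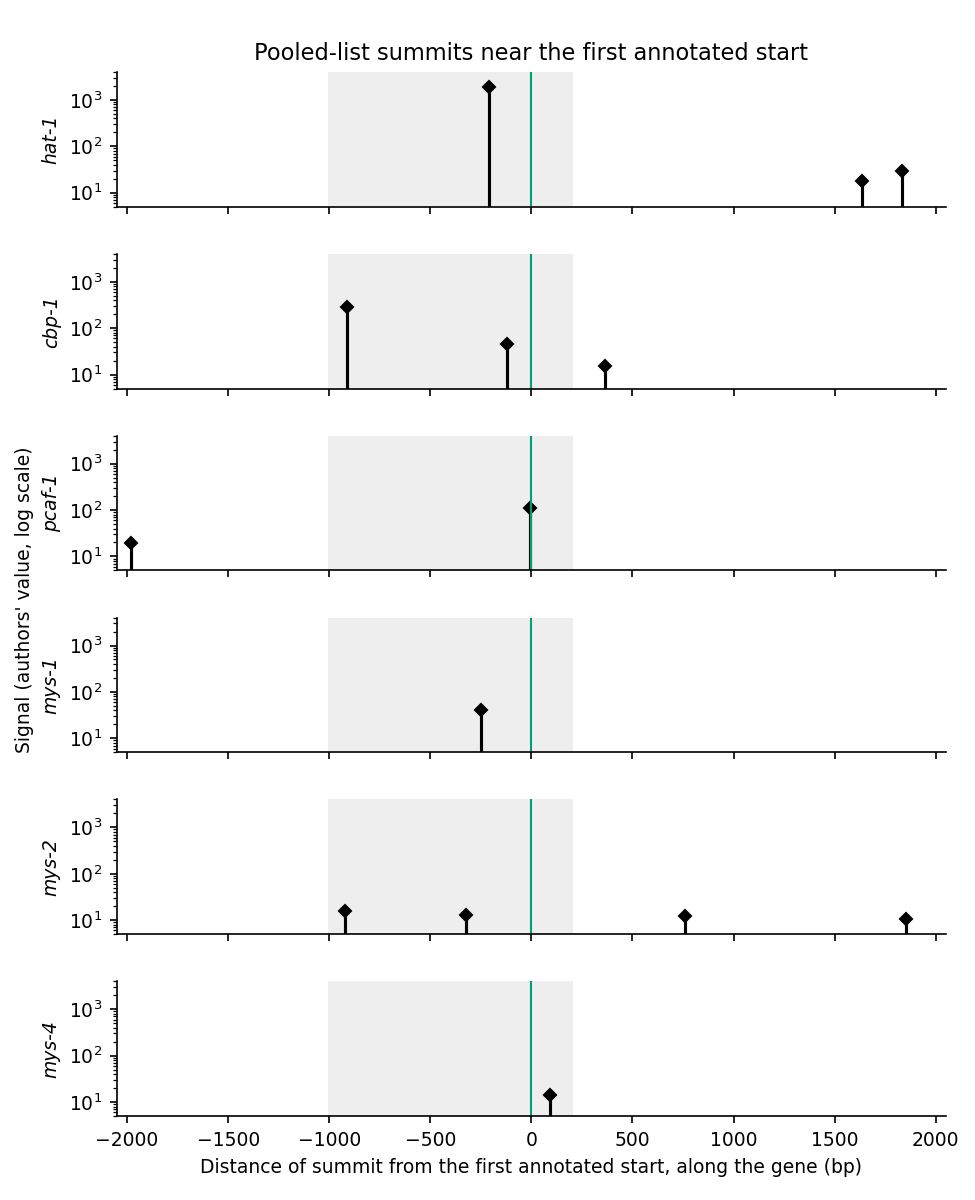
Summits of pooled-list regions by distance (bp) from the first annotated start of each gene, along the gene, with signal (authors' value, log scale) as height; the green line is the start and the grey band the promoter window. The summit nearest a start is that of pcaf-1, 5 bp upstream, and the highest cbp-1 summit lies 914 bp upstream.

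For mys-2 and mys-4 the nearest IDR regions lay at the head of a run of genes on the same strand. mys-2 is the last of ndua-2, fld-1 and mys-2, which are 108 and 100 bp apart, and the summit at ndua-2, a gene of respiratory complex I, had a signal of 82.1 (rank 795) and lay 286 bp upstream of the ndua-2 start and 5401 bp from the mys-2 start, in the windows of dnj-29 and fld-1 as well. mys-4 follows C34B7.1 after 297 bp. The summit in the window of C34B7.1, at 8329796, had a signal of 110.3 (rank 533). It lay 654 bp upstream of C34B7.1 and 3286 bp from the mys-4 start. This summit was nearer the start of the ribosomal protein gene rpl-25.2, at 8329647 on the opposite strand, whose window also holds it. Around mys-1 the nearest IDR summit was 24117 bp away. With gaps of at most 500 bp within a run, a rule chosen after seeing the data, 5 of 6 members had an IDR summit at their own start or at the head of their run, beside 10.8% of all protein-coding genes (2164). Whether these genes are transcribed together was not tested, and no IDR summit lay inside any of the 6 genes outside the windows.

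Of 5605 genes with a promoter region in both replicates, those with ranks closest to hat-1 were M03C11.3, dld-1, rps-12 and ska-3. Likeness was the sum of the absolute differences of log10 rank over the 2 replicates. M03C11.3 shares the region, with a difference of 0. The next were dld-1, which encodes dihydrolipoamide dehydrogenase (rank 8 in replicate 1 and 9 in replicate 2, a difference of 0.176), and rps-12, a gene of the small ribosomal subunit, with ska-3, which share 1 region (rank 7 in replicate 1 and 6 in replicate 2, a difference of 0.192).

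The sequence around the summits differed among the members. Over the 1584 IDR summits, 18.75% of the stretches of 200 bp held ACGCGC on either strand, against 2.71% of 3168 equally long flanking stretches, centred 500 bp to the left and to the right. CGCGCG was in 10.6% of the IDR stretches and 1.10% of the flanking ones. The hat-1 stretch held both, as 1 overlapping match centred 53.5 to 54.5 bp before the summit along the gene, and the mys-1 stretch held ACGCGC 3.5 bp after its summit. The element CTGCGTC was found in 18.0% of IDR stretches and 1.52% of flanking ones, and its longer form CTGCGTCTC, which contains it, in 14.2% of IDR stretches and 0.631% of flanking ones. GCGCGC was found in 14.4% of IDR stretches and 1.48% of flanking ones, and GAGAGAGA in 12.4% of IDR stretches and 1.39% of flanking ones. None of these 4 was in the stretch at the highest region of any of the 6 genes, although the weaker cbp-1 region held GAGAGAGA. The other motifs searched, with their shares of IDR and flanking stretches, were CACGTG (IDR 6.44%, flanking 4.01%), GGCGGG (IDR 10.7%, flanking 2.87%) and TTTCTTTC (IDR 4.73%, flanking 3.35%), and no member held them. The CG-rich motifs, GCGCGC and the pair found at hat-1, were taken from the IDR summits themselves, being the 3 six-mers with the highest ratio of shares, and hat-1, cbp-1 and pcaf-1 are among those summits.

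Of the 10 six-mers with the highest ratio, the hat-1 stretch held 4, AGACGC and CGCGGC beside the pair marked in capitals. AGACGC overlaps that pair, as AGACGCGCG, so overlapping six-mers at 1 place were each counted. The median IDR stretch held 1 and 33.8% held 3 or more, against 2.97% of flanking stretches. The 10 were taken from these same IDR summits by their ratio over the flanks, so this gap was built in. The mys-1 stretch held 2, which overlap each other, the mys-4 stretch 1, and those at both cbp-1 regions and at pcaf-1 held 0. At mys-2 the highest region held 0 and the second, of rank 21030 and in an exon of fld-1, held 3. GC content was 47.5% at hat-1, 50.5% at cbp-1, 39% at mys-1, 42.5% at mys-2, 32.5% at mys-4 and 29.5% at pcaf-1, against medians of 43% in IDR stretches and 36.5% in flanking ones. The cbp-1 and pcaf-1 regions thus passed the IDR threshold at opposite ends of this range and without any of the 9 motifs. A match here is a run of letters, and the absence of one says only that these letters are not in the window.

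Other genes of the acetylation pathway were taken from 5 lists of 43 genes, of which 42 were found in the annotation (flt-1 was not), and 15 of the 42 (35.7%) had an IDR summit. The subunits of acetyltransferase complexes had 8 of 13 (61.5%), histone chaperones 3 of 6, bromodomain proteins 3 of 6, deacetylases 1 of 12 (8.33%) and further acetyltransferase homologs (lsy-12, elpc-3, taf-1, cbp-2 and cbp-3) 0 of 5. In the pooled list the counts were 12 of 13 subunits (92.3%), 5 of 6 chaperones (83.3%), 6 of 6 bromodomain proteins, 7 of 12 deacetylases (58.3%) and 1 of 5 homologs (20%). Over all protein-coding genes the share was 7.72% in the IDR list and 41.7% in the pooled list. These counts are descriptions, and the lists were written with results of these data known.

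Among the complex subunits, several of which are partners of MYS-1, the highest signals were at gfl-1, a YEATS domain gene (IDR signal 424, rank 99, and rank 93 in both replicates), and lin-53, a histone-binding subunit (267, rank 172, with ranks 182 and 168 in replicates 1 and 2). They were followed by ekl-4, the homolog of DMAP (231, rank 205), mrg-1, a chromodomain gene (181, rank 271), and trr-1, the homolog of the TRRAP scaffold (153, rank 339). The ATPase gene ruvb-2 had 142 (rank 381), epc-1, the enhancer of Polycomb homolog, 112 (rank 518) and the other ATPase gene, ruvb-1, 58.0 (rank 1286). At ruvb-1 replicate 2 had 1 region (rank 1148), and replicate 1 had 2 of nearly equal signal, 17.8 (rank 2698) at 25 bp and 17.5 (rank 2779) at 274 bp upstream, on either side of the pooled summit. Of the 9 subunits known as partners of the Tip60 type of enzyme, a grouping made after the values were seen, 7 had an IDR summit, beside 7.72% of all protein-coding genes. The mys-1 gene itself was outside the IDR list, and no more is read from a count over a group formed in this way.

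All 8 subunit summits lay 100 to 300 bp upstream of the start, from 129 bp at gfl-1 to 236 bp at lin-53, where 711 of the 1588 pairs over all genes did (44.8%). Of the 8, 7 lay in the window of another protein-coding gene too, ruvb-2 being the exception. Over all genes, 453 of the 1106 IDR summits in promoter windows did (41.0%), with each summit counted once. The 8 were picked by gene, so this is not a like share. A share over pairs, where a shared summit counts for each of its genes, is higher and was not computed. The partners were M04B2.4 at gfl-1, nra-2 at lin-53, rps-20 at ekl-4, spcs-2 at mrg-1, C47D12.2 at trr-1, Y111B2A.12 at epc-1 and tofu-1 at ruvb-1. The median IDR signal of these subunits was 167, beside 96.9 over all protein-coding genes with an IDR summit. Below the IDR list were lin-49 (pooled signal 47.3, rank 1769), ssl-1 (25.3, rank 4840), ada-2 (22.8, rank 5985), an adaptor of the PCAF and GCN5 type of complex, and ing-3 (12.9, rank 20154), and rba-1 had no region.

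Among readers, erasers and chaperones, nap-1, a nucleosome assembly gene, had the highest signal of the 42 genes, 692 (rank 48, with ranks 46 and 48 in replicates 1 and 2), 192 bp upstream and in a window shared with praf-3. The other chaperone genes with an IDR summit were unc-85, the ASF homolog (99.7, rank 617), and chaf-2, a subunit of the chromatin assembly factor, sharing its window with Y71G12B.30 (57.3, rank 1313). The bromodomain genes were bet-2 (161, rank 312), pbrm-1 of the PBAF remodeller (105.5, rank 577, with a second region of 57.9, rank 1293, that T28F4.4 shares) and nurf-1 (103, rank 599, with kbp-3), and their summits lay farther out, from 340 to 981 bp upstream. Of the deacetylases only the sirtuin gene sir-2.2 had an IDR summit (67.6, rank 1040), 195 bp upstream.

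**Figure D4:**
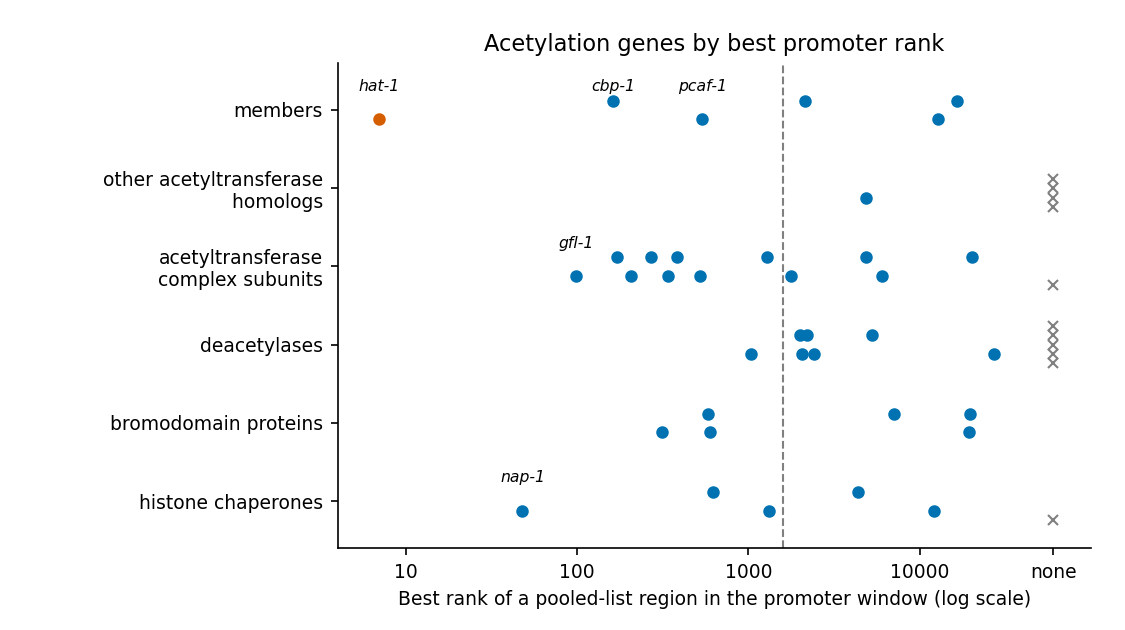
Best rank of a pooled-list region in the promoter window (log scale) for each gene of the 6 acetyltransferases (top, hat-1 in orange) and of the 5 other lists; crosses at the right are genes with no region, and the dashed line is the last IDR rank, 1584. hat-1 is farthest left at rank 7, followed by nap-1 at rank 48 and gfl-1 at rank 99.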

How the data were processed

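Peak lists on ce11 of 2 biological replicates were used, 4 in all: 1 permissive list per replicate, 1 for the pooled replicates and 1 thresholded by IDR. Each permissive list was made from an alignment and a control alignment, per the labels' list of files, and both replicates share the control. The signal of each region, its −log10 q-value and its summit offset from the region start (in bp, counted from 0) are the authors' deposited values. The sources used here name no caller, aligner, version, IDR threshold or depth, and the counting error of a region therefore cannot be given. Lists on ce10 were not used here.

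Genes came from Ensembl release 115 (WBcel235) and sequence from the RefSeq WBcel235 genome. On that genome 24251 of 24285 annotated start codons read ATG, and 0 regions reached beyond a chromosome end. Summits were assigned to genes whose window, 1000 bp upstream to 200 bp downstream of any transcript start, held them, and ranks run by signal within a list. Positions are 1-based. Motifs were counted on both strands in 200 bp around each summit and in windows centred 500 bp to each side. Six-mers (2080, a six-mer and its reverse complement taken as 1) were ranked by the ratio of the shares, with at least 10 flanking windows required. The scripts were checked on simulated data, in Python 3.11.15 with numpy 2.4.6, pandas 2.3.3 and matplotlib 3.10.9.

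The genes named are the 6 members, genes sharing a summit with a member, genes of the 5 lists with an IDR summit and the 4 genes closest to hat-1 in replicate rank; neighbouring genes, genes of same-strand runs and list genes below the IDR threshold were named after their values were seen. The members, lists and motifs were chosen with earlier results of these data known. No p-values were computed.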

Additional observations from a re-analysis of the deposited data

How the results depend on the processing

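hat-1, cbp-1 and pcaf-1 were the members with an IDR summit with a window of 2000 bp upstream and 500 bp downstream, when an overlap of at least 1 bp counted, and in the higher-signal 50 percent of the IDR list (3 members each time). Without one replicate no IDR can be computed, so the top 1584 regions by signal of the other replicate took its place, and the same 3 members had a summit there. With a window of 500 bp upstream to 100 bp downstream cbp-1 dropped out, leaving 2, since its summit is 914 bp from the start. With the first gene of a same-strand run counted, an alternative chosen after seeing the data, the number was 5. The share of all protein-coding genes was 7.72%, and it was 4.59% in the higher-signal 50 percent of the IDR list, which has fewer regions by construction, and between 6.32% and 10.8% in the other alternatives. Pathway genes with an IDR summit numbered 12 to 18, against 15. All 6 members kept a pooled-list summit, except that mys-4 had none without replicate 1, where the replicate 2 list stood in for the pooled one. The share of all protein-coding genes ran beside this from 30.7% with the narrow window to 54.2% with the wide one. The hat-1 rank ran from 6 without replicate 2 to 8 without replicate 1. With the scale of the signal, the depth and the IDR threshold unknown and 2 lists that share a control, no precision can be given for a single region, and nothing firmer than rank and signal is said of the regions below the IDR limit at mys-1, mys-2 and mys-4.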
